A study of Mus musculus with 19 samples.

Results

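The mevalonate arm of sterol synthesis was followed through 8 of its enzymes, the genes of the table between acetyl-CoA and farnesyl and geranylgeranyl pyrophosphate that carry the symbols Acat2, Hmgcs1, Mvk, Pmvk, Mvd, Idi1, Fdps and Ggps1. They were picked by symbol, with earlier results of these data known, and they are 8 of the 20408 genes listed. RNA of the suprarenal abdominal aorta was sequenced in 19 male mice fed regular chow, 24 h after an osmotic pump had begun to deliver saline or angiotensin II (Ang II, a vasoactive peptide hormone). The labels give an age of 8 weeks, which in the methods is the age at the first tamoxifen injection, so that the mice were older when the RNA was taken. The labels give the dose of Ang II as 500 to 1000 ng/min/kg, and the methods name the upper end, 1000 ng/min/kg, for the sequenced mice. IKKβ-/- mice were SMA-CreERT2 IKKβ Flox/Flox ApoE-/-, and their IKKβ+/+ counterparts carried the same SMA-CreERT2 transgene and the same ApoE deletion with wild-type IKKβ. Both genotypes had received tamoxifen, which activates the recombinase, before the pumps. All 4 groups thus lacked apolipoprotein E, and none of them was free of Cre or tamoxifen. The smooth muscle actin promoter drives CreERT2, so that the deletion was aimed at smooth muscle cells, while the RNA came from the whole vessel segment with its other cells. There were 5 saline-infused and 5 Ang II-treated IKKβ+/+ mice, and 4 saline-infused and 5 Ang II-treated IKKβ-/- mice.

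The enzymes work one after another. Acat2 joins acetyl-CoA units into acetoacetyl-CoA in the cytosol, and Hmgcs1 adds a further acetyl-CoA to give HMG-CoA. Mvk and Pmvk phosphorylate mevalonate in turn, and Mvd removes its carboxyl group to form isopentenyl pyrophosphate. Idi1 turns this unit into its isomer, Fdps links both into farnesyl pyrophosphate, and Ggps1 lengthens farnesyl to geranylgeranyl pyrophosphate. Farnesyl pyrophosphate feeds squalene and cholesterol as well as dolichol and ubiquinone, and both lipids anchor small GTPases in membranes. In most cells the transcripts of this arm rise together when sterols in the endoplasmic reticulum are scarce, through transcription factors of the SREBP family.

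Values are normalized counts, the reads on a gene divided by the size factor of the mouse, and a mouse had 11382573 to 19906694 reads on genes. In IKKβ+/+ mice Ikbkb, which encodes IKKβ, stood at 673 ± 78.6 (SD, n = 5) with saline and 726 ± 46.3 (SD, n = 5) with Ang II, and in IKKβ-/- mice at 515 ± 74.3 (SD, n = 4) with saline and 548 ± 87.9 (SD, n = 5) with Ang II. Its mean log2 value was lower by 0.40 in the 9 IKKβ-/- mice (two-sided exact permutation test, p = 0.000141). The smooth muscle markers Acta2, Myh11, Tagln and 5 others were all present, with a summed level of 334569 to 446231 and 464324 to 647799.5 normalized counts in saline-infused and Ang II-treated IKKβ+/+ mice and 435198 to 593177 and 309864 to 553760.0 in IKKβ-/- mice. Mouse numbers form a separate block in each group and the labels give no batch, so that a batch of animals or libraries and the group cannot be told apart. The labels do not say more on the mice of a group than that each is a separate sample, and p-values measure the spread between these mice.

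All 8 enzymes were detected and passed the filter on low values, which asked for 10 or more normalized counts in 4 or more mice. Levels were also divided by the length of all annotated exons of a gene, and the order of genes depends on this choice. That length was 4208 bases for Fdps, whose longest coding transcript has 1382, and 4721 for Ggps1, whose longest has 4244. The order by transcript length was not tested. Per kilobase of annotated exons, Ggps1 and Hmgcs1 were the most abundant in saline-infused IKKβ+/+ aortas, at 198 ± 23 and 187 ± 68 normalized counts per kilobase (SD, n = 5). Pmvk followed at 83 ± 26.4, Acat2 at 64 ± 18 and Mvk at 49.2 ± 13.3. Mvd stood at 19.5 ± 7.48, Idi1 at 4.76 ± 1.88 and Fdps at 2.23 ± 1.41 normalized counts per kilobase. The ranges over mice overlapped between Ggps1 and Hmgcs1, between Pmvk and Acat2, between Acat2 and Mvk, and between Idi1 and Fdps, and were apart between the other neighbours. Within each saline-infused IKKβ+/+ mouse Hmgcs1 lay above Pmvk, Pmvk above Acat2, Mvk above Mvd, and Mvd above Idi1. Ggps1 lay above Hmgcs1, Acat2 above Mvk, and Idi1 above Fdps in 4 of the 5 mice each. In Ang II-treated IKKβ+/+ mice Hmgcs1 took the lead at 403 ± 207 per kilobase, and Ggps1 was next at 185 ± 14.1.

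Reads from part of these transcripts cannot be assigned to 1 gene model by their sequence alone. Of the stretches of 84 bases, the length of a read, in the longest coding transcript of Fdps, 78.8% also occur in transcripts of 5 other genes, among them Gm43738, which overlaps Fdps on the same strand, and the Fdps-like models Gm3571 and Gm5873. The share was 38.8% for Acat2, with Acat3 and Tcp1, and 28.6% for Idi1, with Gm13502 among 3 models. It was 11.7% for Hmgcs1, where Gm48342 lies on the opposite strand, and 6.83% for Ggps1, where Arid4b does. Mvk, Pmvk and Mvd shared none, although Mvd is overlapped by the model Gm20388 on the opposite strand. The level of Fdps is therefore the least certain of the 8, and how far shared reads set its place at the bottom of the order was not tested. Gm3571 and Gm5873 themselves held few reads, at most 6.43 and 4.28 normalized counts in a mouse. The libraries kept the strand, but the strand setting of the counting is not given in the sources used here, so that Hmgcs1 and Gm48342 cannot be told apart with certainty. Gm48342 had 0.749 ± 0.825 normalized counts in saline-infused and 4.65 ± 3.64 in Ang II-treated IKKβ+/+ mice (SD, n = 5), far below Hmgcs1.

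The first comparison asks what 24 h of Ang II does in the aorta of mice with intact IKKβ. Transcripts of 5 of the 8 enzymes rose, Hmgcs1, Mvk, Mvd, Idi1 and Fdps, by log2 fold changes between 0.84 and 2.42. The other 3, Acat2 at the entry, Pmvk in the middle and Ggps1 at the branch to geranylgeranyl pyrophosphate, did not pass the test. edgeR and DESeq2, run on the reads behind the normalized counts, also called 5. A gene was called at an adjusted p under 0.1 (limma, Benjamini-Hochberg over the 14845 genes tested) and a fold change above 1.2, and 4.33% of the genes tested were called higher and 4.33% lower with Ang II in this comparison. The 8 enzymes had a median of 0.94 on the log2 scale, beside 0.0056 over all genes tested, and 7 of the 8 were positive. Log2 fold changes are on the scale of log2(normalized count + 1), and those of low genes depend on it. For Idi1 edgeR and DESeq2 gave 1.62 and 1.63, above the limma value of 1.36, and for Fdps 2.17 and 2.19, below the limma value of 2.42.

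**Figure D1:**
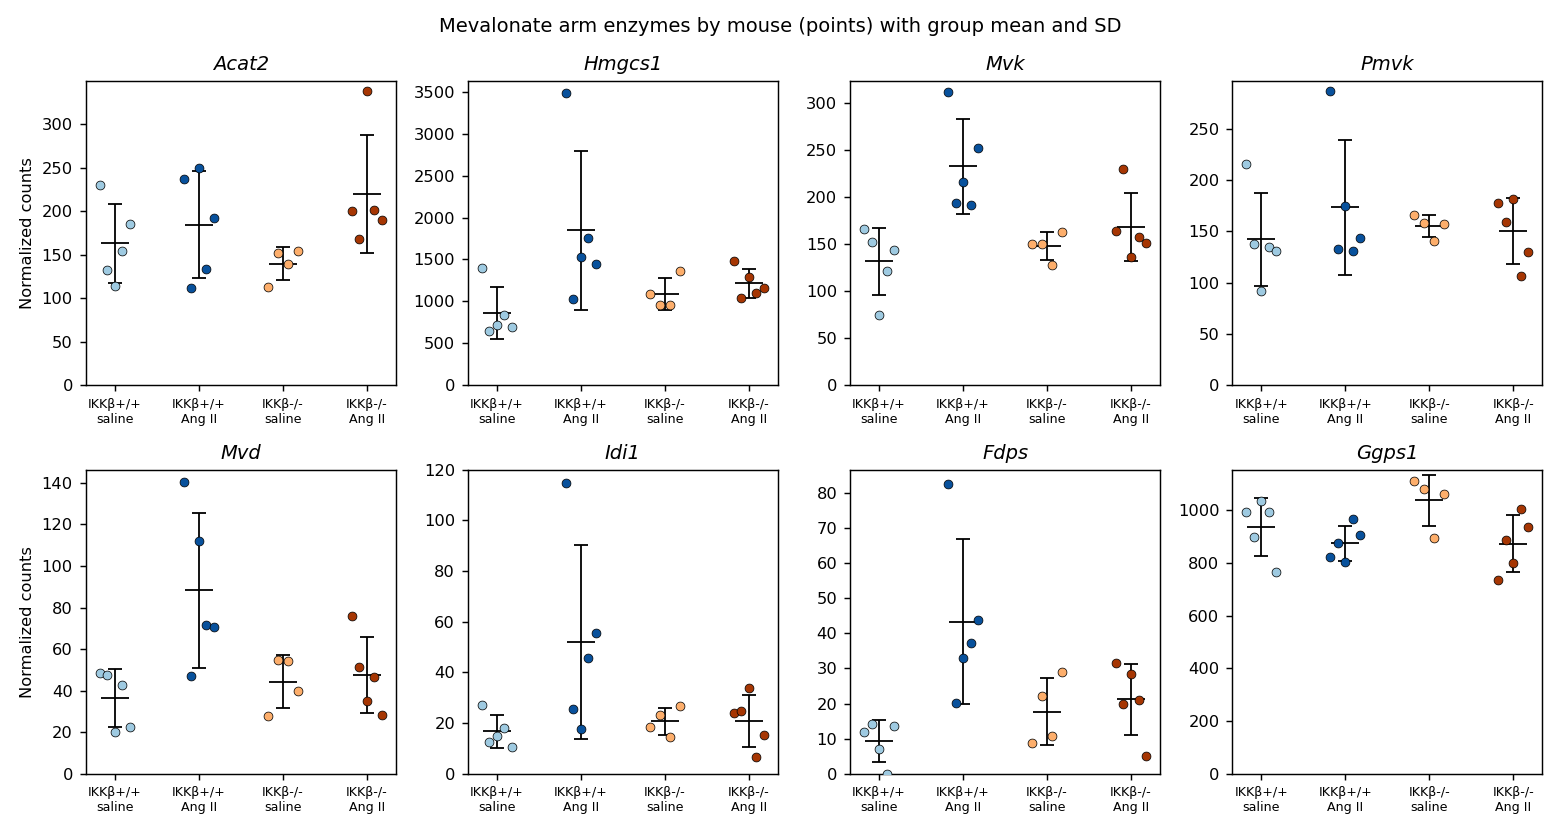
Normalized counts of each enzyme (vertical axis, from 0) in each of the 19 mice (points), by genotype and treatment, with the group mean (long dash) and SD (bars). In Mvk and Fdps all 5 Ang II-treated IKKβ+/+ mice lie above the 5 saline-infused ones, whereas those of Pmvk and Ggps1 overlap.

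Acat2 (chromosome 17, 12942890 to 12960747 of GRCm38) had 114, 133, 154, 185 and 229.6 normalized counts in the saline-infused and 111, 134, 192, 237 and 249 in the Ang II-treated IKKβ+/+ mice. The mice of both groups were interleaved. The log2 difference was 0.15 ± 0.24 (SE, adjusted p = 0.766), with a 95% interval of -0.34 to 0.65, so that a rise of the size seen in Idi1 lies outside it.

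Hmgcs1 (chromosome 13, 119690379 to 119708260) had 647, 689, 719, 831 and 1404 normalized counts with saline and 1031, 1448, 1529, 1759.9 and 3484 with Ang II. Mouse X2350 stood at 1.98 times the next Ang II-treated mouse, and the highest saline-infused mouse, X2370, lay above the lowest Ang II-treated one, so that 4 of the 5 treated mice were above all controls. The mean was 858 ± 313 (SD, n = 5) without and 1850.5 ± 950.5 (SD, n = 5) with the peptide, a log2 fold change of 1.04 ± 0.25 (SE, adjusted p = 0.0215).

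Mvk (chromosome 5, 114444269 to 114460591), the kinase that starts on mevalonate, had 74.9, 122, 143, 152 and 166 normalized counts with saline and 191, 193, 216, 252 and 312 with Ang II. The groups did not overlap, as was the case with Ang II on top in 3.95% of all genes tested. The log2 fold change was 0.84 ± 0.20 (SE, adjusted p = 0.0214). Pmvk (chromosome 3, 89454541 to 89469013), the next kinase, behaved otherwise. It had 91.6, 131, 135, 138 and 216 normalized counts with saline and 131, 132, 143, 174 and 287 with Ang II, and only X2350 exceeded the highest control. Its log2 difference was 0.27 ± 0.23 (SE, adjusted p = 0.533), with a 95% interval of -0.20 to 0.74.

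Mvd (chromosome 8, 122433601 to 122443422), the decarboxylase, had 20.3, 22.3, 42.7, 47.6 and 48.6 normalized counts with saline and 47, 70.6, 71.7, 112 and 140.3 with Ang II. The lowest treated mouse, X2352, lay among the controls and the other 4 above them. The log2 fold change was 1.25 ± 0.34 (SE, adjusted p = 0.0419). Idi1 (chromosome 13, 8885501 to 8892451), the isomerase, was a low transcript with 10.4, 12.7, 15, 18 and 27.3 normalized counts with saline and 17.6, 25.6, 45.9, 55.7 and 115 with Ang II. Here X2350 was at 2.06 times the next mouse, 2 treated mice lay within the range of the controls, and the log2 fold change of 1.36 ± 0.46 (SE, adjusted p = 0.0921) was near the threshold.

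Fdps (chromosome 3, 89093588 to 89101959), which makes farnesyl pyrophosphate, had 0, 7.05, 12, 13.5 and 14.3 normalized counts with saline and 20.3, 32.9, 37.3, 43.7 and 82.5 with Ang II. The groups did not overlap, and the control at 0, X2376, held no read of this gene. The log2 fold change was 2.42 ± 0.65 (SE, adjusted p = 0.0406), and with each mouse left out it ran from 1.70 to 2.68. The means were 9.37 ± 5.95 (SD, n = 5) for saline against 43.3 ± 23.5 (SD, n = 5) for Ang II, which rest on 0 to 18 and 19 to 77 reads per mouse. Ggps1 (chromosome 13, 14050659 to 14063488), which draws on the product of Fdps, had 764, 896, 991, 994 and 1035 normalized counts with saline and 803, 820.4, 874, 906 and 968 with Ang II. The groups overlapped, with 1 control below and 3 controls above all treated mice, and the log2 difference of -0.09 ± 0.10 (SE, adjusted p = 0.66) had the narrowest 95% interval of the 8, -0.31 to 0.12.

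**Figure D2:**
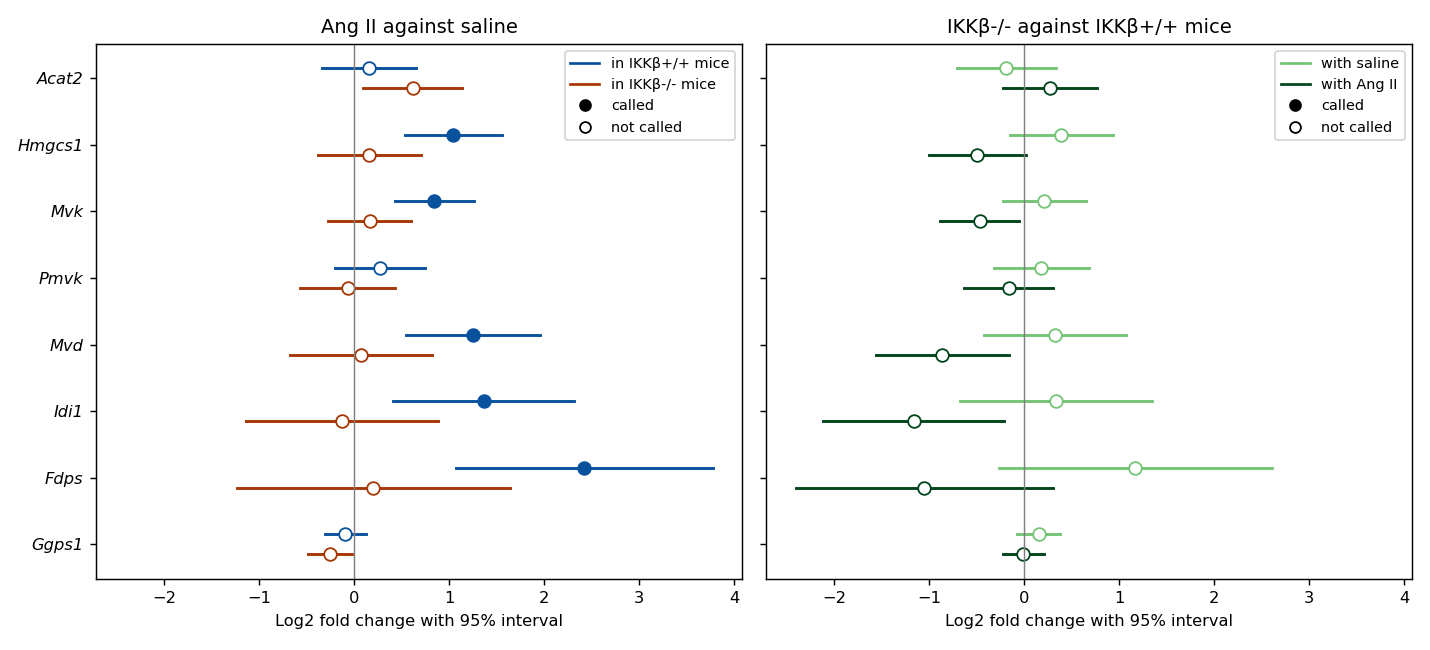
Log2 fold change (horizontal axis) of each enzyme with its 95% interval from limma, for Ang II against saline in either genotype (left) and for IKKβ-/- against IKKβ+/+ mice with either infusion (right). Filled points passed the threshold: 5 enzymes with Ang II in IKKβ+/+ mice and none elsewhere.

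Mouse X2350 held the highest value of all 19 mice in each of the 5 enzymes that rose, and in Pmvk as well. The mean deviation of the 8 enzymes from their means over all mice was 1.22 log2 units in X2350 and -0.05 to 0.52 in the other 4 Ang II-treated IKKβ+/+ mice, against -0.73 to 0.15 in the controls. Without X2350 the log2 fold changes of Hmgcs1 and Mvk were 0.79 (adjusted p = 0.0521) and 0.73 (adjusted p = 0.0762), and both were still called. Those of Mvd, Idi1 and Fdps were 1.06, 1.01 and 2.16 (adjusted p = 0.133, 0.275 and 0.127), and these calls were lost. The count of enzymes called was thus 2 without X2350, and it was 3 without either of the controls X2373 and X2378. The call of Idi1 was lost when any of 11 of the 19 mice was left out, some of them in the other genotype through the shared estimate of the spread. In X2350 the summed level of adventitial fibroblast markers was 26998 normalized counts and that of macrophage markers 3064, each the lowest of its group, while smooth muscle markers came to 617246, the second highest. Genes of dividing cells came to 361, the highest of the group. Adrenal, liver, and neuron and Schwann cell markers came to 41.8, 64.3 and 2153, each the second highest. Endothelial and adipocyte markers, at 13331 and 3204, were each the second lowest. The part of these cells in its high values was not tested.

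**Figure D3:**
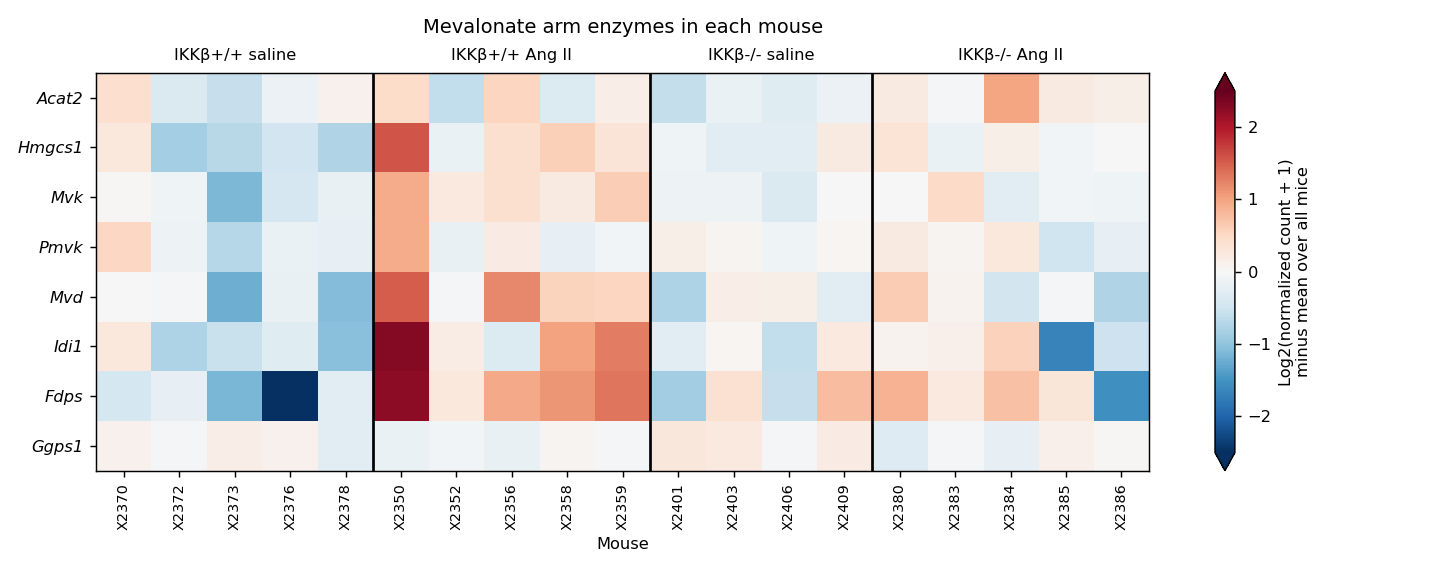
Deviation of log2(normalized count + 1) from the mean over all mice (colour, red above and blue below, with values beyond the ends of the scale drawn at its ends) for each enzyme (rows) in each mouse (columns, by group). Mouse X2350 is the reddest column in the rows from Hmgcs1 to Fdps, and the row of Ggps1 is nearly even.

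**Figure D4:**
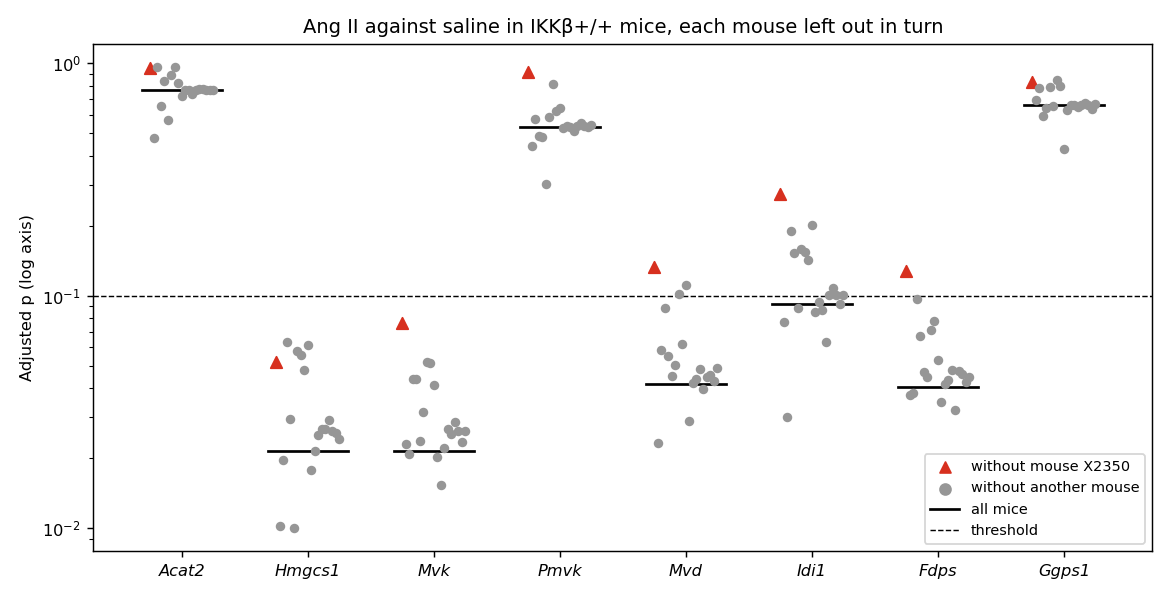
Adjusted p of Ang II against saline in IKKβ+/+ mice (vertical log axis) for each enzyme with all mice (line) and with each of the 19 mice left out in turn (points, with X2350 as a triangle). Hmgcs1 and Mvk stay below the dashed threshold of 0.1 in every case, and Mvd, Idi1 and Fdps cross it without X2350.

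The stretches upstream of 3 of the enzymes that rose are shown as a description. Whether these stretches took part in the rise was not tested. They were taken from RefSeq for GRCm38.p6 up to the base before the annotated start, 250 bases for Hmgcs1 (chr13:119690101-119690350, plus strand) and Mvd (chr8:122443423-122443672, minus strand) and 208 bases for Mvk (chr5:114444061-114444268, plus strand), where the bases farther up belong to an exon of the neighbouring gene Mmab. Capitals mark CCAAT, the box bound by NF-Y, on either strand, and TCACNCCAC, a form of the sterol regulatory element.
Hmgcs1: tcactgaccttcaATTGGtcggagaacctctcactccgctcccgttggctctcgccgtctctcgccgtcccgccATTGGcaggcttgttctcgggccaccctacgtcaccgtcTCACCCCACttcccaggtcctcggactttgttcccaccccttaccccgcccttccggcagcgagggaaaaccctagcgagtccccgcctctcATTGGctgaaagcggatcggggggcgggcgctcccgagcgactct
Mvk: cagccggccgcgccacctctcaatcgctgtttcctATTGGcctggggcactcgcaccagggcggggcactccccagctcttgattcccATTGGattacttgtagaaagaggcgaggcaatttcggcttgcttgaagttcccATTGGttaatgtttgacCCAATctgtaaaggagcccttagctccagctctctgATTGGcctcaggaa
Mvd: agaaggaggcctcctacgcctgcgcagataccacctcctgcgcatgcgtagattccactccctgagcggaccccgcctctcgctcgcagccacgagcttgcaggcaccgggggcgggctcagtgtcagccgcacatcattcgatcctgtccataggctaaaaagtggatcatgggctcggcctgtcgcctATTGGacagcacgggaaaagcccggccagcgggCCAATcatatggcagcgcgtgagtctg
Entries were held for 7 of the 8 enzymes. TCACNCCAC, searched on both strands of 250 bases, occurred in 1.05% of 32851 promoters and among the enzymes in Hmgcs1 alone, at -137 from the start. CCAAT occurred in 33.9% of promoters, and in 4 or more copies in 0.840%. Mvk held 5 copies, Hmgcs1 and Ggps1 held 3 each, and Mvd and Idi1 held 2 each. Pmvk held 1 copy before the first of its 2 annotated starts, and Acat2 held none. CACGTG, an E-box, was in 6.02% of promoters and in none of these. The stretch before Mvk also leads to Mmab, an enzyme of cobalamin metabolism that starts in the opposite direction, and which was chosen after its values were seen. Mmab had 128 ± 25.8 normalized counts with saline and 123 ± 10.3 with Ang II in IKKβ+/+ mice (SD, n = 5), a log2 difference of -0.04 (adjusted p = 0.933), while Mvk rose.

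The rest of the pathway was read from lists drawn up from general knowledge. Of the 13 enzymes from squalene to cholesterol, which use the farnesyl pyrophosphate of Fdps, 6 were called higher with Ang II in IKKβ+/+ mice and the other 7 were not called. Their median on the log2 scale was 0.56. The largest were Sqle, the squalene epoxidase, at 1.53 ± 0.37 (SE, adjusted p = 0.0258), Hsd17b7 at 1.42 ± 0.32 (SE, adjusted p = 0.0171), Msmo1 at 1.17 ± 0.33 (SE, adjusted p = 0.0498) and Cyp51, the lanosterol demethylase, at 1.14 ± 0.29 (SE, adjusted p = 0.0351). Acat1 and Acat3, thiolases that resemble Acat2, were not called. Acat1, the mitochondrial form, differed by -0.02 ± 0.10 (SE, adjusted p = 0.936) and Acat3 by 0.18 ± 0.37 (SE, adjusted p = 0.828). Among genes of acetyl-CoA supply, cytosolic or mitochondrial, 0 of 6 tested were called. The list of sterol sensing and SREBP processing, which also holds transport genes such as Abca1 and Npc1, had 0 of 15 called. Its log2 differences were positive in 5 genes and negative in 10. An unadjusted p under 0.05 was found in 3 of them, and in 20.3% of the genes tested. Of the enzymes of protein prenylation 1 of 11 was called, Pggt1b, a subunit of the enzyme that attaches geranylgeranyl groups, which was lower at -0.28 ± 0.08 (SE, adjusted p = 0.0626). None of 10 genes for dolichol, ubiquinone and other isoprenoid products was called, and of 15 prenylated small GTPases 2 were called, Hras and Rhoc, both higher.

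Other transcripts moved along with the enzymes in this comparison. Of 8 smooth muscle markers 3 were called higher (Cnn1, Des and Tagln), and the ranges of their summed level given above did not overlap. Of 7 endothelial markers 1 was called lower, with a summed level of 20594 to 35657 normalized counts with saline and 11373 to 23003 with Ang II. Of 7 adventitial fibroblast markers 2 were called lower, at 64788 to 83916 and 26998 to 81673, and of 8 genes of dividing cells 1, at 381 to 680.2 and 126 to 361. Of the tissues rich in this pathway, the adrenal cortex had 3 of 9 markers in the table, with a sum of 5.32 to 27.5 and 8.54 to 93.6 normalized counts, and the liver 5 of 7, with 1.76 to 42.1 and 2.19 to 66.6. The adrenal markers Mc2r and Akr1b7 were at 0 in 11 and 12 of the 19 mice, and the liver markers Ttr and Apoa2 in 11 each. Star, the only adrenal marker tested, was above 0 in every mouse and reached 93.6 normalized counts. Its log2 difference in this comparison was 1.06 ± 0.60 (SE, adjusted p = 0.331). Alb, the only liver marker tested, was at 0 in 2 mice and reached 307, with a log2 difference of 0.44 (adjusted p = 0.814). Mouse X2356 of the Ang II-treated IKKβ+/+ mice stood apart in neuron and Schwann cell markers, with a sum of 7866 against a group median of 1777 normalized counts, and without it the same count of 5 enzymes was called. In bulk RNA a larger share of a cell type and more RNA per cell cannot be told apart. The part of any of these cells in the rise of the enzymes was not tested.

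The second comparison puts the same question to mice without IKKβ in smooth muscle. None of the 8 enzymes was called with Ang II in IKKβ-/- mice by limma, edgeR or DESeq2, where 2.59% of the genes tested were called higher and 2.69% lower by limma, and 2 enzymes had an unadjusted p under 0.05, as did 17.8% of the genes tested. The median log2 fold change was 0.11, and 5 of the 8 were positive. The 5 enzymes that rose in IKKβ+/+ mice had small differences with wide intervals. Hmgcs1 had 953, 955, 1084 and 1365 normalized counts with saline and 1036, 1103, 1159, 1292 and 1480.5 with Ang II. Only 1 treated mouse exceeded all controls. Its log2 difference was 0.16 ± 0.26 (SE, adjusted p = 0.807), with a 95% interval of -0.38 to 0.70.

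Mvk had 128, 149.6, 151 and 163 normalized counts with saline and 136, 152, 157, 164 and 230.2 with Ang II in IKKβ-/- mice. Apart from X2383 on top the groups were interleaved, at 0.16 ± 0.21 (SE) on the log2 scale with a 95% interval of -0.27 to 0.60. Mvd had 28, 39.9, 54 and 54.8 and 28.3, 34.9, 46.6, 51.6 and 75.8 normalized counts. These also overlapped, at 0.07 with an interval of -0.68 to 0.81. Idi1 had 14.4, 18.3, 23.2 and 26.9 and 6.42, 15.4, 24, 24.6 and 33.8 normalized counts, and Fdps had 8.69, 10.8, 22.1 and 29 and 5.14, 19.8, 20.9, 28.5 and 31.4. Neither was separated by treatment, and their intervals of -1.14 to 0.88 and -1.23 to 1.64 still hold changes of more than 1.5-fold in both directions. Pmvk differed by -0.07, with an interval of -0.57 to 0.43.

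The 2 enzymes with an unadjusted p under 0.05 in IKKβ-/- mice, Acat2 and Ggps1, were not among the 5 that rose in IKKβ+/+ mice. Acat2 had 113, 139, 152 and 155 normalized counts with saline and 167, 190.2, 201, 201 and 338 with Ang II. All 5 treated mice lay above the 4 controls, as in 2.41% of the genes tested, with X2384 far above the rest. The log2 difference was 0.61 ± 0.25 (SE, adjusted p = 0.202). Acat3, with which Acat2 shares sequence, had 77.1 normalized counts in X2384, again the highest of the 19 mice, and its group means were 20.6 ± 5.15 and 38.5 ± 23.1 (SD). X2384 also held 27598 normalized counts of adipocyte markers, against 177 to 977 in the controls, the highest sum of macrophage markers of all mice, 8083, and the lowest sum of smooth muscle markers of all mice, 309864. X2385 of the same group had still more of the adipocyte markers, 28208, with Acat2 at 201. Ggps1 went the other way, from 895, 1059.5, 1081 and 1111 with saline to 735, 799.8, 888, 937 and 1004 with Ang II. Of the treated mice 3 lay below all controls. Its log2 difference was -0.25 ± 0.11 (SE, adjusted p = 0.234).

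Transcripts of other lists moved with Ang II in IKKβ-/- mice. Of 7 adipocyte markers tested 6 were called higher with Ang II, with a summed level of 177 to 977 with saline and 1382 to 28208 with Ang II, and of 13 clock genes 10 were called, 3 higher and 7 lower. Of 13 enzymes from squalene to cholesterol none was called, 1 had an unadjusted p under 0.05, and their median log2 fold change was -0.04. Of the other lists on the pathway, Crat, the carnitine acetyltransferase, was called higher at 0.50 ± 0.16 (SE, adjusted p = 0.0948), as was Nr1h3, the liver X receptor alpha, at 1.40 ± 0.24 (SE, adjusted p = 0.00566). The part of adipocytes or of the clock in the values of the enzymes was not tested. With the score of the clock genes as a covariate 5 enzymes were called in IKKβ+/+ mice and 0 in IKKβ-/- mice, as without it. These counts cannot decide the part of the clock, because the score averages genes called in both directions. In IKKβ+/+ mice the score ran from -0.82 to 0.41 with saline and from -0.62 to -0.11 with Ang II. The saline-infused mice X2370 and X2372 stood at -0.63 and -0.82, and the others of that group at 0.30 to 0.41. In IKKβ-/- mice it ran from 0.47 to 0.87 with saline and from -0.51 to 0.24 with Ang II, apart from each other like the treatments. There the covariate turned Mvd to -0.44, Idi1 to 0.34 and Fdps to -0.47.

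Whether Ang II acted differently in the 2 genotypes was tested as a difference of the effects. No enzyme was called by limma, edgeR or DESeq2, and limma called 0% of all genes tested higher and 0% lower, with 1654 genes, or 11.1%, and 5 enzymes at an unadjusted p under 0.05. Those 5 were the enzymes that had risen in IKKβ+/+ mice, a set that the same values had picked out. Taking the IKKβ+/+ effect from the IKKβ-/- effect left -0.88 ± 0.36 (SE, adjusted p = 0.377) in Hmgcs1 and -0.68 ± 0.29 (adjusted p = 0.398) in Mvk. It was -1.18 ± 0.49 (adjusted p = 0.389) in Mvd, -1.49 ± 0.67 (adjusted p = 0.419) in Idi1 and -2.22 ± 0.94 (adjusted p = 0.398) in Fdps. A different response of these enzymes in IKKβ-/- mice is therefore not shown at this threshold, and an equal response is not shown either. In Pmvk, Ggps1 and Acat2 the differences were -0.34, -0.16 and 0.46, with intervals that include 0. Leaving out X2350 brought the difference in Hmgcs1 to -0.62, and with each mouse left out that in Fdps ran from -2.49 to -1.50.

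The genotypes were also compared under each infusion, with the mice of the comparisons above. With saline none of the 8 enzymes was called and none had an unadjusted p under 0.05, which 19.2% of the genes tested had, while 3.4% of the genes tested were called higher and 2.07% lower in IKKβ-/- mice. edgeR and DESeq2 called none as well. Of the 8, 7 were positive, with a median log2 difference of 0.27 beside -0.02 over all genes tested. The values per mouse stand above, and Fdps had the widest gap, from 9.37 ± 5.95 (SD, n = 5) in IKKβ+/+ to 17.7 ± 9.6 (SD, n = 4) normalized counts in IKKβ-/- mice, a log2 difference of 1.17 with an interval of -0.27 to 2.60. With each mouse left out it ran from 0.44 to 1.43, and the IKKβ+/+ mice include X2376, which held no read of Fdps. Hmgcs1 was at 858 ± 313 (SD, n = 5) and 1089 ± 194 (SD, n = 4), or 0.39 with an interval of -0.15 to 0.93. All 4 IKKβ-/- mice lay below X2370 and above the other 4 IKKβ+/+ mice. With each mouse left out the difference ran from 0.28 to 0.58. Acly, which makes cytosolic acetyl-CoA from citrate, was called lower in IKKβ-/- mice at -0.80 ± 0.22 (SE, adjusted p = 0.0633). Of the 13 clock genes 11 were called in this comparison, 8 higher and 3 lower, and of 8 macrophage markers 2 were called lower, with sums of 4625 to 6436 and 2987 to 4253 normalized counts.

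With Ang II, in the mice that also enter the first comparison, 7 of the 8 enzymes were lower in IKKβ-/- mice, with a median log2 difference of -0.48 beside -0.01 over all genes tested. None was called by limma, edgeR or DESeq2. Few genes were called at all, 0.0202% higher and 0.108% lower, but 14.3% had an unadjusted p under 0.05, and 3 of the 8 enzymes did. Mvk was at 233 ± 50.5 (SD, n = 5) in IKKβ+/+ and 168 ± 36.3 (SD, n = 5) normalized counts in IKKβ-/- mice, where 4 of the 5 lay below every IKKβ+/+ mouse. The log2 difference was -0.47 ± 0.20 (SE, adjusted p = 0.291). Mvd was at 88.3 ± 37.3 (SD, n = 5) and 47.4 ± 18.3 (SD, n = 5), or -0.86 ± 0.34 (SE, adjusted p = 0.267), with 3 of the 5 below every IKKβ+/+ mouse. Idi1 was at 51.9 ± 38.3 (SD, n = 5) and 20.9 ± 10.4 (SD, n = 5), or -1.16 ± 0.46 (SE, adjusted p = 0.271), with 2 of the 5 below. Hmgcs1 and Fdps differed by -0.49 and -1.05, with intervals of -1.01 to 0.02 and -2.40 to 0.30 that reach 0. X2350, with its high values, is among the IKKβ+/+ mice here. With each mouse left out Hmgcs1 ran from -0.67 to -0.23, Idi1 from -1.47 to -0.81 and Fdps from -1.28 to -0.64. Ggps1 had normalized counts of 874 ± 66.5 (SD, n = 5) in IKKβ+/+ and 873 ± 107 (SD, n = 5) in IKKβ-/- mice, a log2 difference of -0.01 whose interval was -0.22 to 0.21. Of the 13 enzymes from squalene to cholesterol none was called and 7 had an unadjusted p under 0.05, with a median of -0.51. Acat2 stood 0.27 higher, with an interval of -0.22 to 0.76.

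Within the groups the enzymes varied together to different degrees. Over the 19 mice, after the group means were taken out, Pearson's r between 2 enzymes was highest for Hmgcs1 and Pmvk at 0.77, although Pmvk did not pass the test with Ang II. Without X2350 this pair had 0.61, and Acat2 and Pmvk were highest at 0.63. Over the 7 pairs with Pmvk the median r was 0.66, and without X2350 it was 0.51. The 10 pairs among the 5 enzymes that rose had r from 0.27 to 0.69, with a median of 0.35 that was 0.20 without X2350. Pairs with Ggps1 ran from -0.38 to -0.03, and without X2350 from -0.35 to 0.12. These values describe the mice, and the genes of a mouse share its library and size factor. Of all other genes tested, those most like the mean deviation of the 8 enzymes included enzymes of the sterol steps that follow. Cyp51 had r = 0.83, Hsd17b7 0.82, Msmo1 0.81 and Sqle 0.76, and without X2350 r was 0.72, 0.70, 0.67 and 0.63. Atad3a, St3gal3, Mdh2, Tufm and Pcyt2 were also among the 10 most alike, with r from 0.76 to 0.78.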

How the data were processed

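RNA from the suprarenal aorta of 19 mice had been sequenced by the authors as single-end poly(A) libraries. According to the methods and the submitters' processing notes, reads were trimmed with Trimmomatic 0.35, aligned with STAR 2.7.1a to GRCm38, and STAR read counts per gene were divided by size factors with DESeq2 1.30.1. RSEM served for TPM values, which were not used here. The deposited values are this normalized signal per gene, normalized counts and not raw counts. Whole reads could be recovered from 100% of the values (within 0.1 read), which gave 11382573 to 19906694 reads per mouse. Idi1 and Fdps held few reads, and the part of depth and of reads shared with other gene models in this was not tested.

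Groups were taken from the sample labels. Values were tested as log2(value + 1) with limma 3.58.1 in R 4.3.3 (lmFit, eBayes with trend), fitting the 4 group means and 1 shared spread, over the 14845 of 20408 genes with at least 10 in at least 4 mice. P-values were adjusted by Benjamini-Hochberg, and a gene was called below 0.1 where it also changed more than 1.2-fold. Ikbkb was compared with an exact permutation test. The fit was tested on simulated data. Alternatives were a pseudocount of 4, no filter, a threshold of 0.05, a minimum change of 1.5-fold, only the groups compared, TMM scaling, edgeR 4.0.16 and DESeq2 1.42.0 on the recovered reads, array quality weights, a clock gene score as covariate, and each mouse left out. The rule for named genes took the 8 enzymes, related isozymes and overlapping models, the called genes of the pathway lists (at most 4 a comparison), and the 10 genes most like the enzymes. Some genes that it took are not reported here. Enzymes and lists were chosen with earlier results of these data known.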

Additional observations from a re-analysis of the deposited data

Results flagged for a closer look

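Of the 32 groups of values (8 enzymes in 4 groups) 3 held a mouse far from the others of its group, and chance flags about 1 in 20 groups. Acat2 was 338.1 normalized counts in X2384 of the Ang II-treated IKKβ-/- mice, where the next mouse had 200.7. X2384 also had the lowest summed smooth muscle markers of the 19 mice, 309864, the highest summed macrophage markers, 8083, and 27598 normalized counts of adipocyte markers. X2385, with 28208 of the adipocyte markers, had 200.7 of Acat2. The part of these cells in the value was not tested. Hmgcs1 was 1403.5 in X2370 of the saline-infused IKKβ+/+ mice, where the next had 831. X2370 had the highest adipocyte sum of its group, 9173, and the most reads of all mice, and their part was not tested. Pmvk was 287.05 in X2350 of the Ang II-treated IKKβ+/+ mice, where the next had 174.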

How the results depend on the processing

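Of 40 log2 differences (8 enzymes in 5 comparisons), 31 kept their direction under every alternative and every mouse left out, and 9, none of them called, did not. The count of enzymes called with Ang II in IKKβ+/+ mice, 5 as reported, was 4 with an adjusted p under 0.05 and without the filter, where Idi1 was lost, and 5 under the other 8 alternatives. With each mouse left out it was 2 to 5, at 2 without X2350 (Hmgcs1 and Mvk) and at 3 without X2373 or X2378, which also cost the call of Mvd. The cause was not tested. The count was 0 in each of the other 4 comparisons under all of these settings. The genotype difference in Ikbkb ran from -0.44 to -0.36 with each mouse left out. For Ang II in IKKβ+/+ mice, array quality weights turned Acat2 to -0.048. For Ang II in IKKβ-/- mice, the clock covariate turned Mvd to -0.44, Idi1 to 0.34 and Fdps to -0.47, and edgeR and DESeq2 turned Idi1 to 0.024 and 0.016. With each mouse left out Pmvk ran from -0.14 to 0.050, Mvd from -0.13 to 0.23, Idi1 from -0.34 to 0.22 and Fdps from -0.063 to 0.61 there. For the genotypes with saline, array quality weights turned Mvd to -0.044 and the clock covariate turned Idi1 to -0.091. For the genotypes with Ang II, array quality weights turned Ggps1 to 0.0055, and with each mouse left out Pmvk ran from -0.25 to 0.035 and Ggps1 from -0.061 to 0.052. Idi1 and Fdps had the lowest counts, and the part of depth in this was not tested. No paired analysis was possible because each mouse number belongs to 1 group.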

Other observations

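Markers of cells that the report does not describe were read as well. Of the 8 markers of neurons and Schwann cells 4 were tested, and Uchl1 was called higher with Ang II in IKKβ+/+ mice, as was Ckm among the 4 striated muscle markers tested. Mouse X2356 of that group stood apart in the summed neuron and Schwann cell markers, at 7866 normalized counts against a group median of 1777. Of the lymphocyte markers 2 of 7 were tested and 0 were called in any of the 5 comparisons by limma, with 0 at an unadjusted p under 0.05. Alb, the only hepatocyte marker tested, was called lower with Ang II in IKKβ-/- mice and higher in IKKβ-/- than in IKKβ+/+ mice with saline. In IKKβ-/- mice Ang II also lowered 3 of 8 genes of dividing cells, Ccnb1, Cdk1 and Mki67, and 1 of 15 prenylated small GTPases, Rhob.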
